A study of Mus musculus with 10 samples.

Results

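The genes described are 10 members of the negative limb and the output limb of the circadian clock: the period genes Per1, Per2 and Per3, the cryptochromes Cry1 and Cry2, the REV-ERB receptors Nr1d1 and Nr1d2, and the PAR bZIP factors Dbp, Tef and Hlf. They were taken by gene name from the deposited table of 54532 genes, and all 10 were among the 15388 genes that passed the filter on low values. The study compared lungs of wild-type C57/BL6 mice, male or female, at postnatal day 14 (P14). In the IncPBF group (increased pulmonary blood flow, n = 5 lungs) a needle puncture joined the abdominal aorta to the inferior vena cava at P7. In the sham group (n = 5 lungs) the abdomen was opened at P7 without the puncture. Bulk RNA-sequencing measured the RNA of all lung cells together, so fewer cells of a type and less RNA per cell cannot be told apart.

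The mammalian clock is a feedback loop of transcription. The proteins CLOCK and BMAL1 (encoded by Arntl) bind DNA at E-boxes and activate the period, cryptochrome and REV-ERB genes and Dbp, Tef and Hlf. PER and CRY proteins then inhibit CLOCK and BMAL1, REV-ERB proteins repress Arntl, and the PAR bZIP proteins activate genes with D-boxes. In the lung the clock runs in many cell types and is well known from the club cells of the airway. The RNA of most of these genes rises and falls over the day. The sources used here give a regular day and night cycle but no clock time of collection for any lung, so the surgical group and a difference in the time of collection cannot be told apart.

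Promoter sequences were taken from RefSeq on GRCm38.p6, as windows of 300 bases from 250 bases before to 50 bases after each start site. They held 9 of the 10 genes in 11 windows, and Per2 was not among them. The windows were searched on both strands for the E-box CACGTG, the variant E-box CACGTT, the D-box TTATGTAA and its variant TTACGTAA, the REV-ERB and ROR core site TAGGTCA, the cAMP response element TGACGTCA and the full palindromic glucocorticoid response element; none of these is a part of another. An E-box stood in 4 of the 11 windows (Per1, Cry1 and both of Tef), against 7.15% of 32817 promoter windows of all genes. The variant E-box stood in 3 windows (Cry1, Cry2 and Nr1d1, 4.69% of all), the D-box in 1 (Per3, 0.935% of all) and the cAMP response element in 1 (Hlf, 1.79% of all). The D-box variant (0.119% of all), the REV-ERB and ROR core site (2.61% of all) and the glucocorticoid response element (0.00914% of all) were in none of the 11 windows, and Nr1d2, Dbp and the other window of Per1 held none of the motifs. These are matches of letters and do not show binding.

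The stretches around the matches are shown because the genes with an E-box or its variant include both the largest difference below (Nr1d1) and one of the smallest (Cry1), and because Hlf, which did not fall, holds another motif. Per3, with the D-box alone, and Nr1d2, with none of the motifs, fell as well. Capitals mark the matches. That of Per1 lies at chr11:69098753-69098818 (plus strand), in an intron of the longer Per1 transcripts. Those of Cry1 (chr10:85185079-85185163), Cry2 (chr2:92434200-92434265), Nr1d1 (chr11:98775378-98775435) and Hlf (chr11:90390918-90390956), each on the minus strand, lie outside the genes annotated in GENCODE M21. That of Per3 (chr4:151044786-151044900, minus strand) lies upstream of Per3 in an intron of Camta1, and that of Tef (chr15:81811246-81811311, plus strand) in an intron of Tef before its inner start site.
Per1: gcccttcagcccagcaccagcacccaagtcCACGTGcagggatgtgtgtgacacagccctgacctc
Cry1: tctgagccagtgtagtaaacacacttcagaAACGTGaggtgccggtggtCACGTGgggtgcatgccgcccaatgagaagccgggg
Cry2: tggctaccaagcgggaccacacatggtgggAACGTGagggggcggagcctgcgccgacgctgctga
Nr1d1: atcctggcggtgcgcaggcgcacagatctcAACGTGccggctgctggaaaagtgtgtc
Tef: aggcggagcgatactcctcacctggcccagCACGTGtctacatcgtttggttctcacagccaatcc
Per3: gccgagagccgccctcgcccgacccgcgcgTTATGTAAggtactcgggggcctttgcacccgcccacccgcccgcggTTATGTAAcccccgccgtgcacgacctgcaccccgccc
Hlf: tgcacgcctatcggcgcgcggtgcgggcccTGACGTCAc

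Values are FPKM, sequenced fragments per kilobase of a gene in a library of standard size. The lungs held 16103423 to 20318525 fragments on genes, and the 10 genes rested on 149 to 5595 fragments in each lung, so counting error was not the main limit. Differences were tested with limma on log2(FPKM + 0.1) over all genes, with Benjamini-Hochberg adjusted p values, and single genes also by exact two-sided permutation over all assignments of the lungs to the groups, for which the smallest p is 0.00794. In the columns of the table the lungs of each group are numbered 1 to 5, and the labels do not say whether they came from separate litters, days of surgery or animals, so p values measure the spread between these samples, which may be technical in part. Lungs stood apart in 2 ways that touch the results. Xist, an RNA that coats the inactive X chromosome of female cells, stood at 52.4 to 66.5 FPKM in IncPBF lungs 2 to 5 and at most 0.0770 FPKM in IncPBF lung 1 and the sham lungs. Ddx3y, a gene of the Y chromosome, stood at 18.6 FPKM in IncPBF lung 1 and at 21.8 to 24.6 FPKM in the sham lungs. In IncPBF lungs 2 to 5 Ddx3y was at most 0.00926 FPKM. By these genes IncPBF lungs 2 to 5 read as female, and IncPBF lung 1 and all sham lungs as male. Airway genes were low in sham lung 5, where the club cell gene Scgb1a1 was at 128 FPKM against 4802 to 11743 FPKM in the other lungs.

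Of the 10 genes, 7 fell in the IncPBF group at an adjusted p under 0.05 (limma) and 0 rose. Among all genes tested, 16.2% fell and 16.1% rose by the same rule. The genes that fell were Per1, Per2, Per3, Cry2, Nr1d1, Nr1d2 and Tef. Cry1 and Dbp were lower on average without passing the threshold, and Hlf was level. In 5 genes (Per2, Cry1, Cry2, Nr1d1 and Tef) the 5 IncPBF lungs all lay below the lowest sham lung, which held for 11.2% of all genes tested. At an unadjusted p under 0.05 in limma 9 of the 10 differed, against 43.2% of all genes tested. The median log2 difference of the 10 genes was -0.58, against 0.01 over all genes tested. Once the lungs were set to equal totals 6 of the 10 fell; over all genes the calls then split into 3559 higher and 1782 lower, against 2480 higher and 2490 lower with the FPKM as deposited.

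**Figure D1:**
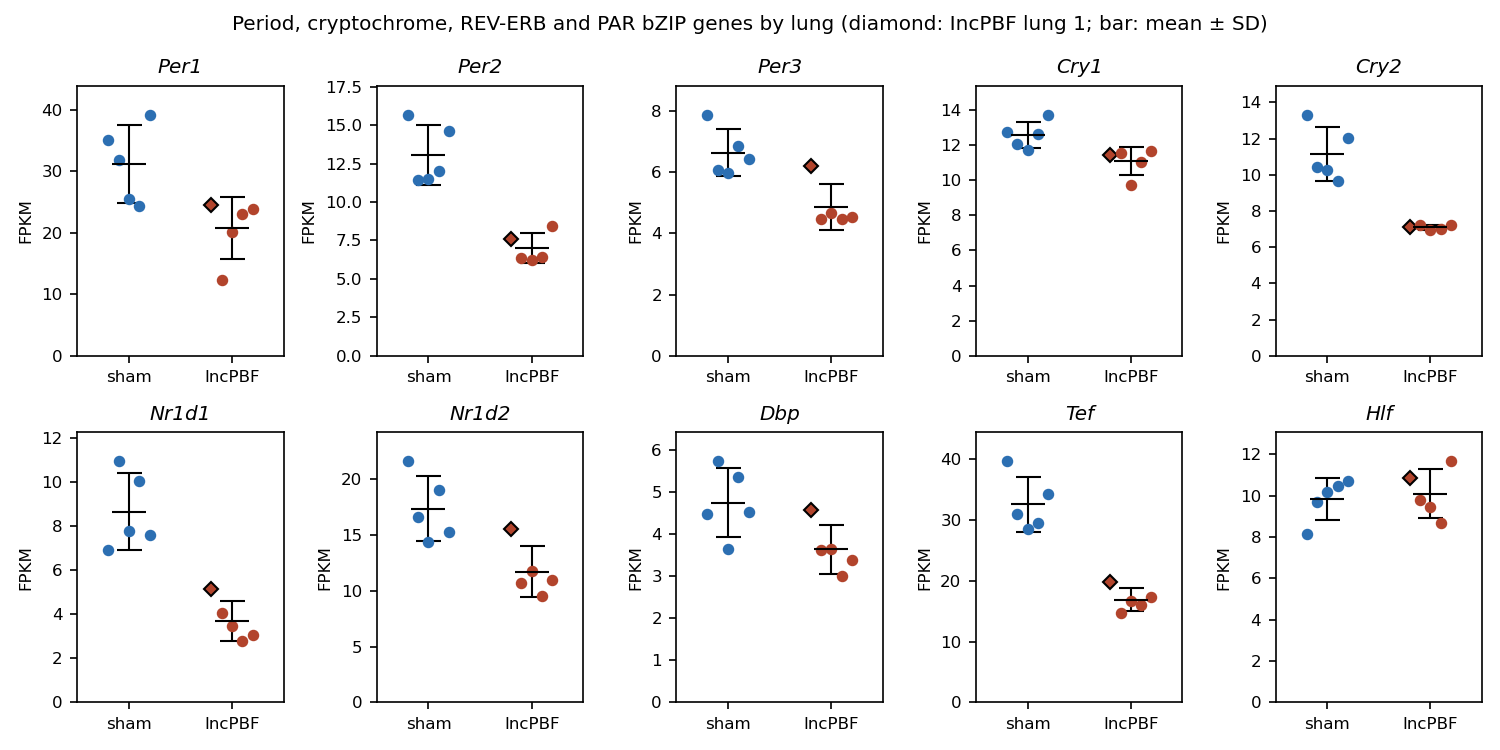
FPKM of the 10 clock genes (vertical axes, each from 0) in the 5 sham lungs (blue) and the 5 IncPBF lungs (red), with the mean and SD of each group as black bars and IncPBF lung 1 as a diamond. The groups are fully apart for Per2, Cry1, Cry2, Nr1d1 and Tef, and they overlap throughout for Hlf.

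The period proteins carry the inhibitory signal of the loop into the nucleus, and Per1 is also induced directly by glucocorticoids and cAMP. Per2 (ENSMUSG00000055866, chromosome 1 of GRCm38 from 91415982 to 91459324) was at 7.59, 6.36, 6.23, 6.44 and 8.44 FPKM in IncPBF lungs 1 to 5, and at 15.7, 11.4, 11.5, 12.0 and 14.6 FPKM in sham lungs 1 to 5. The highest IncPBF lung, lung 5, lay below the lowest sham lung. The means were 7.01 ± 0.965 and 13.0 ± 1.95 FPKM (SD, n = 5 per group), which puts the IncPBF group at 53.7% of the sham group. The log2 difference was -0.88 (standard error 0.11, adjusted p = 0.000236 from limma).

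Per1 (ENSMUSG00000020893, chromosome 11 from 69095217 to 69109960) was the most abundant period gene in every lung. It was at 24.6, 12.3, 20.2, 23.1 and 23.9 FPKM in IncPBF lungs 1 to 5 and at 35.1, 31.8, 25.4, 24.4 and 39.2 FPKM in sham lungs 1 to 5. IncPBF lung 2 was far below the others, and IncPBF lung 1 lay just above the lowest sham lung. The log2 difference was -0.60 (standard error 0.19, adjusted p = 0.0355 from limma; exact permutation p = 0.0159). The call was lost without IncPBF lung 3 (adjusted p = 0.0637) and without sham lung 1, 2 or 5 (adjusted p = 0.0798, 0.0669 and 0.0807, limma), and without IncPBF lung 2 the log2 difference was -0.42. It was also lost with each lung at an equal total (adjusted p = 0.0503) and without a variance trend (adjusted p = 0.0510).

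Per3 (ENSMUSG00000028957, chromosome 4 from 151003652 to 151044665), a period gene that the loop can run without, was at 6.19, 4.47, 4.65, 4.45 and 4.52 FPKM in IncPBF lungs 1 to 5. In sham lungs 1 to 5 it was at 7.86, 6.06, 5.97, 6.86 and 6.43 FPKM. IncPBF lungs 2 to 5 lay close together below every sham lung, and IncPBF lung 1 lay inside the sham range. The log2 difference was -0.45 (standard error 0.11, adjusted p = 0.00821 from limma; exact permutation p = 0.0238).

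The cryptochromes are the strongest repressors of CLOCK and BMAL1. Cry2 (ENSMUSG00000068742, chromosome 2 from 92403646 to 92434043) had the narrowest IncPBF group of the 10 genes, at 7.11, 7.21, 6.94, 6.997 and 7.22 FPKM in lungs 1 to 5. The sham lungs were at 13.3, 10.4, 10.3, 9.67 and 12.0 FPKM. The lowest sham lung, lung 4, thus stood well clear of every IncPBF lung. The means were 7.09 ± 0.125 and 11.1 ± 1.49 FPKM (SD, n = 5 per group), with a log2 difference of -0.63 (standard error 0.08, adjusted p = 0.000234 from limma).

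Cry1 (ENSMUSG00000020038, chromosome 10 from 85131700 to 85185064), whose RNA peaks later in the day than that of the other repressors, was at 11.4, 11.6, 9.71, 11.1 and 11.7 FPKM in IncPBF lungs 1 to 5. It was at 12.7, 12.0, 11.7, 12.6 and 13.7 FPKM in sham lungs 1 to 5. The groups did not overlap, although IncPBF lung 5 and sham lung 3 nearly met. The log2 difference of -0.18 (standard error 0.06) missed the threshold over all genes (adjusted p = 0.0517 from limma), while the exact permutation p was the smallest possible. The call passed with 4 other settings: limma-voom, a filter at a mean of 1 FPKM, the lung number as a block, and without sham lung 3 (adjusted p = 0.0386).

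The REV-ERB receptors bind heme and repress Arntl, Npas2 and Nfil3 among other genes. Nr1d1 (ENSMUSG00000020889, chromosome 11 from 98767932 to 98775333), which encodes REV-ERBα, had the largest difference of the 10 genes in these lungs. It was at 5.13, 4.04, 3.45, 2.81 and 3.05 FPKM in IncPBF lungs 1 to 5 and at 6.93, 10.9, 7.77, 10.05 and 7.58 FPKM in sham lungs 1 to 5. Sham lungs 2 and 4 were the high ones, and IncPBF lung 1 came nearest to the sham lungs without reaching them. The means were 3.69 ± 0.927 and 8.65 ± 1.74 FPKM (SD, n = 5 per group), or 42.7% of sham, with a log2 difference of -1.22 (standard error 0.17, adjusted p = 0.000431 from limma).

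At its 3′ end Nr1d1 shares 263 of its 3077 exonic bases with Thra, a thyroid hormone receptor gene on the opposite strand, and the sources used here do not say whether reads were counted by strand. Thra did not pass the test, with IncPBF lungs at 37.5 ± 2.10 FPKM and sham lungs at 38.0 ± 3.70 FPKM (SD, n = 5 per group; log2 difference -0.01, adjusted p = 0.896 from limma). Thra had the higher FPKM of the pair in both groups, and its part in the Nr1d1 values was not tested.

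Nr1d2 (ENSMUSG00000021775, chromosome 14 from 18204054 to 18239127), which encodes REV-ERBβ, ranged from 9.58 to 15.5 FPKM over the IncPBF lungs with a median of 11.0 FPKM, and from 14.3 to 21.6 FPKM in the sham lungs with a median of 16.7 FPKM. IncPBF lung 1, the highest of its group, lay inside the sham range, and the other IncPBF lungs lay below it. The log2 difference was -0.57 (standard error 0.14, adjusted p = 0.00944 from limma; exact permutation p = 0.0238).

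The PAR bZIP factors are outputs of the loop that bind D-boxes and drive enzymes of detoxification and heme synthesis in other organs. Tef (ENSMUSG00000022389, chromosome 15 from 81802421 to 81826863) was at 19.7, 14.7, 16.7, 16.01 and 17.3 FPKM in IncPBF lungs 1 to 5, and at 39.6, 31.0, 28.5, 29.4 and 34.3 FPKM in sham lungs 1 to 5. The groups were far apart, with the highest IncPBF lung at 19.7 FPKM and the lowest sham lung at 28.5 FPKM. The IncPBF mean was 51.9% of the sham mean, with a log2 difference of -0.94 (standard error 0.10, adjusted p = 7.78e-05 from limma).

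Dbp (ENSMUSG00000059824, chromosome 7 from 45705088 to 45710203), often the strongest rhythmic output in liver, had the lowest mean of the 10 genes in both groups. It was at 4.56, 3.62, 3.64, 3.001 and 3.38 FPKM in IncPBF lungs 1 to 5 and at 4.49, 5.73, 3.64, 5.35 and 4.53 FPKM in sham lungs 1 to 5. IncPBF lung 1 lay among the sham lungs, and sham lung 3 lay level with IncPBF lungs 2 and 3. The log2 difference of -0.37 (standard error 0.13) missed the threshold (adjusted p = 0.0529 from limma, exact permutation p = 0.0635). It passed in limma without IncPBF lung 1 (adjusted p = 0.0232), without sham lung 3 (0.0150), and without both IncPBF lung 1 and sham lung 5 (0.0385). It also passed with limma-voom, quantile normalization and a filter at a mean of 1 FPKM (adjusted p = 0.0402, 0.0478 and 0.0476), but not in the remaining settings. Dbp shares 539 of its 2993 exonic bases (18.01%) with Sphk2, a sphingosine kinase gene on the opposite strand that fell as well (log2 difference -0.26, adjusted p = 0.0357 from limma), and its part in the Dbp values was not tested.

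Hlf (ENSMUSG00000003949, chromosome 11 from 90336536 to 90390895) was at 10.9, 9.78, 9.45, 8.69 and 11.7 FPKM in IncPBF lungs 1 to 5. In sham lungs 1 to 5 it was at 8.13, 9.71, 10.2, 10.5 and 10.7 FPKM. The ranges overlapped, with IncPBF lungs 1 and 5 above every sham lung and sham lung 1 the lowest of all. The log2 difference of 0.03 (standard error 0.09) did not pass the threshold (adjusted p = 0.810 from limma), and its sign turned without IncPBF lung 5 or sham lung 1.

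**Figure D2:**
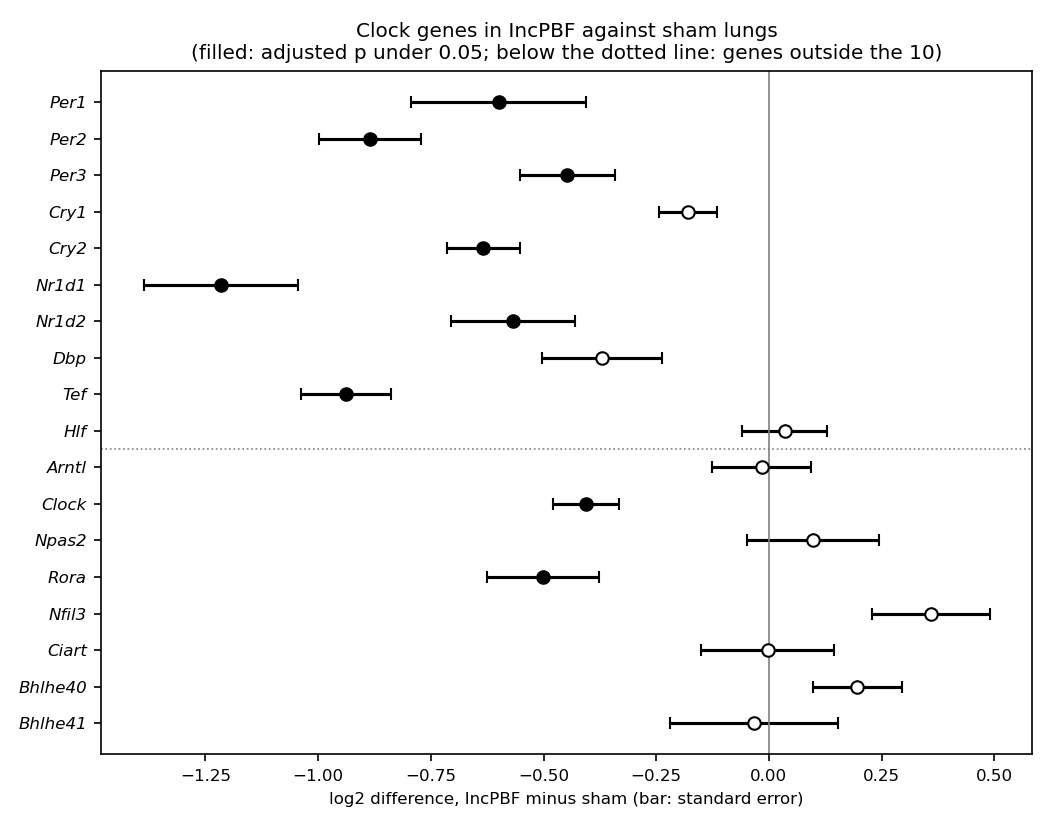
Log2 difference of IncPBF minus sham (horizontal axis, with the standard error from limma as bars) for the 10 genes above the dotted line and 8 other clock genes below it; filled points have an adjusted p under 0.05. Nr1d1, Tef and Per2 lie farthest to the left at -1.22, -0.94 and -0.88, while Hlf, Arntl and Ciart lie at about 0.

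Related genes of a family differed in how far they fell, which was tested with the log2 ratio of their FPKM within each lung, a measure that no scaling of the lungs can move. The 8 pairs were chosen after the values had been seen. Tef fell against Hlf by 0.98 (standard error 0.16): the ratio ran from 1.49 to 2.28 among sham lungs and from 0.57 to 0.88 among IncPBF lungs (exact permutation p = 0.00794, adjusted over the 8 pairs 0.0212). Tef also fell against Dbp, by 0.56 (standard error 0.16), with sham lungs at 2.44 or more and IncPBF lungs at 2.42 or less (adjusted exact p = 0.0212). The groups were thus apart for both ratios with Tef.

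Cry2 fell against Cry1 by 0.46 (standard error 0.08), from -0.39 to 0.07 in the sham lungs to -0.69 to -0.48 in the IncPBF lungs (adjusted exact p = 0.0212). Nr1d1 fell against Nr1d2 by 0.67 (standard error 0.19, adjusted exact p = 0.0381), with sham lung 1 inside the IncPBF range. Per2 fell against Per3 by 0.44 (standard error 0.12, adjusted exact p = 0.0317), with overlap of the groups. The differences of Per2 against Per1 (-0.29 ± 0.18, standard error), Per3 against Per1 (0.15 ± 0.22) and Dbp against Hlf (-0.41 ± 0.16) did not pass the threshold (adjusted exact p = 0.136, 0.516 and 0.0635). That of Per3 against Per1 turned to -0.00497 without IncPBF lung 2, and that of Per2 against Per1 grew to -0.44 (exact permutation p = 0.0159, unadjusted) without the same lung.

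**Figure D3:**
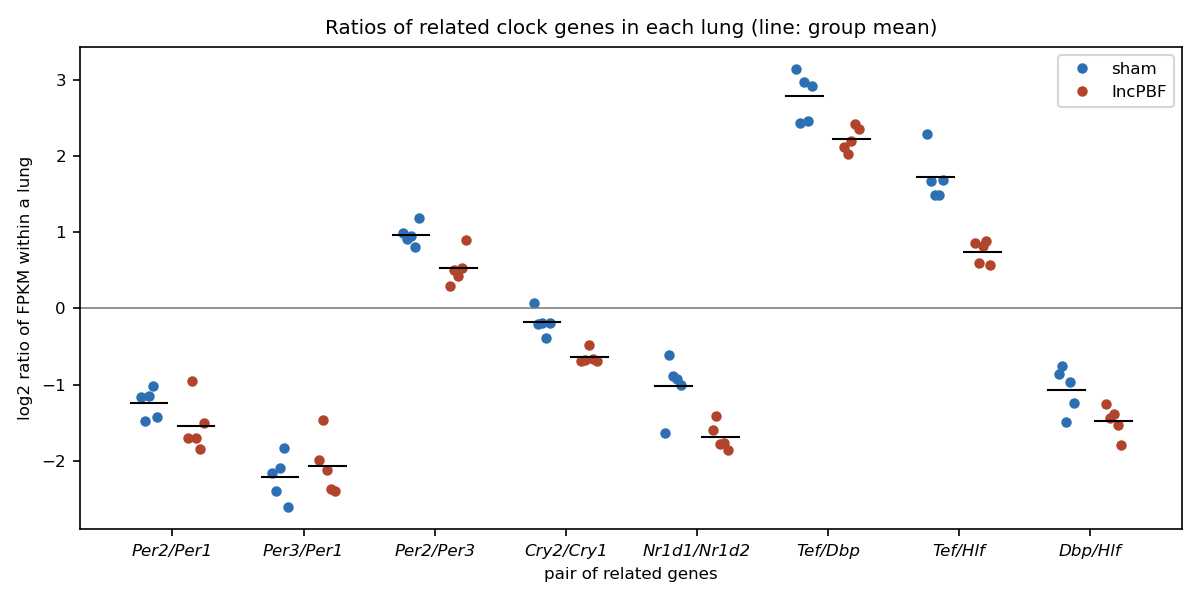
Log2 ratio of FPKM within a lung (vertical axis) for 8 pairs of related genes (horizontal axis) in sham (blue) and IncPBF lungs (red), with group means as lines. The groups are apart for Cry2/Cry1, Tef/Dbp and Tef/Hlf, and they overlap in the other 5 pairs.

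In the sham group the levels, compared per length as FPKM, ran from Tef (32.6 FPKM) and Per1 (31.2 FPKM), whose ranges overlapped, through Nr1d2 (17.4), Per2 (13.0), Cry1 (12.6), Cry2 (11.1), Hlf (9.84), Nr1d1 (8.65) and Per3 (6.64) to Dbp (4.75). Each of these genes overlapped in range with the next, apart from Per1 with Nr1d2 and Per3 with Dbp. In the IncPBF group the means ran from Per1 (20.8 FPKM) through Tef (16.9), Nr1d2 (11.7), Cry1 (11.1), Hlf (10.1), Cry2 (7.09), Per2 (7.01), Per3 (4.86) and Nr1d1 (3.69) to Dbp (3.64). Neighbours in this order overlapped in range, Per1 and Tef included, apart from Hlf with Cry2 and Per2 with Per3. Hlf, below Cry2 and Per2 on average in the sham group, lay above Cry2 in 5 of 5 IncPBF lungs with no overlap, and Nr1d1 and Dbp did not differ beyond their spread.

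Within the IncPBF group lung 1 lay above lungs 2 to 5 in some of the genes and inside their range in Per2, Cry1, Cry2 and Hlf. In Per1 the margin was small (24.6 FPKM, against at most 23.9 FPKM in lungs 2 to 5). IncPBF lungs 2 to 5 lay below every sham lung in 9 of the 10 genes, with Hlf as the exception. In Dbp they did so only just (at most 3.635 FPKM, against 3.639 FPKM in the lowest sham lung). The share of all genes with this pattern was not computed, so nothing is read from the count. IncPBF lung 1 was the highest IncPBF lung in 6 genes (Per1, Per3, Nr1d1, Nr1d2, Dbp and Tef), and lay inside the sham range in 4 of these (Per1, Per3, Nr1d2 and Dbp). In Per2, Cry1, Cry2, Nr1d1 and Tef it stayed below every sham lung. Lung 1 is also the IncPBF lung without Xist RNA, so Xist and the surgical group part in this lung alone.

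When log2 Xist FPKM entered the limma fit beside the group, 2 of the 10 genes passed an adjusted p of 0.05: Cry2 (log2 difference -0.62, adjusted p = 0.0406) and Tef (-0.70, adjusted p = 0.0326). Per2 was at -0.74 (adjusted p = 0.0601) and Nr1d1 at -0.73 (adjusted p = 0.119). Per1 (-0.29), Nr1d2 (-0.15), Per3 (-0.10) and Dbp (-0.03) were nearer to 0. Over all genes 741 were called in that fit, against 4970 (32.3% of those tested) without the covariate. Without IncPBF lung 1, 8 of the 10 genes fell, as did 2136 of the 15388 genes tested (limma). Without both IncPBF lung 1 and sham lung 5, 7 of the 10 fell, as did 1709 of the genes tested. Per1 was then not called (adjusted p = 0.0712, limma) and Dbp was (adjusted p = 0.0385). In both fits every IncPBF lung left read as female and every sham lung as male, so sex and surgery cannot be told apart.

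**Figure D4:**
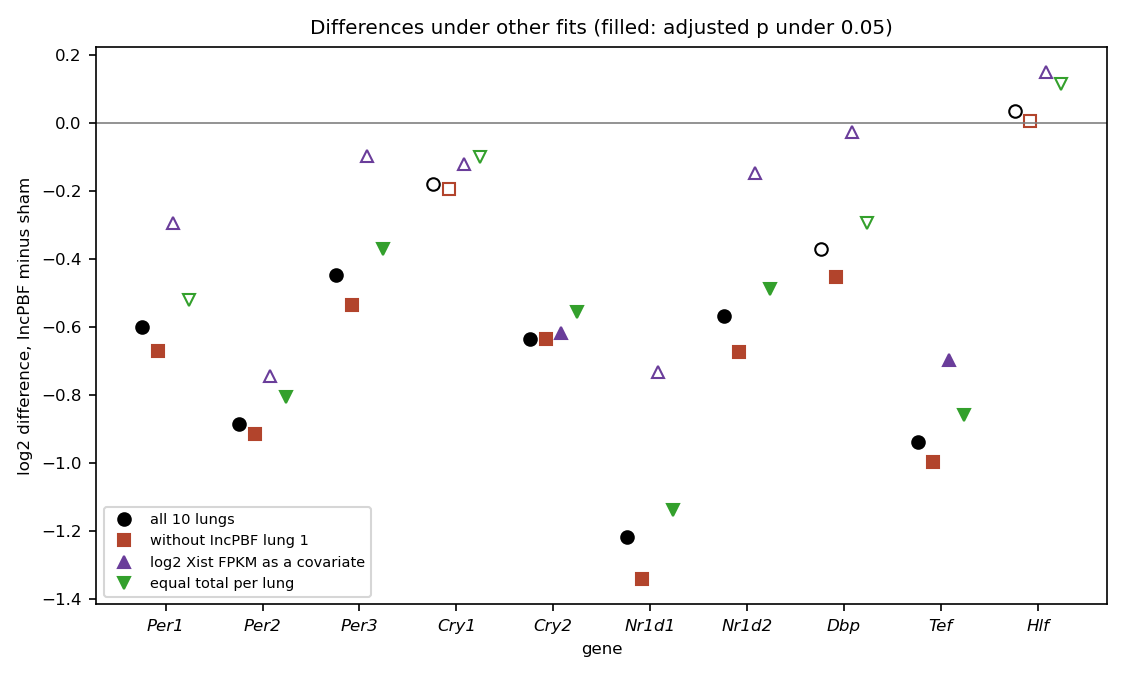
Log2 difference of IncPBF minus sham (vertical axis) of the 10 genes in 4 fits: all 10 lungs (circles), without IncPBF lung 1 (squares), with log2 Xist FPKM as a covariate (upward triangles) and with an equal total per lung (downward triangles); filled symbols have an adjusted p under 0.05. Cry2 and Tef are filled in all 4, while Per3, Nr1d2 and Dbp stand at -0.10, -0.15 and -0.03 with the covariate.

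Other genes of the loop were examined as lists. Of 19 genes in 4 lists (activators, ROR receptors, other repressors, and modifiers of PER and CRY), 16 were tested, 3 fell and 1 rose at an adjusted p under 0.05 (limma), with a median log2 difference of -0.01. These counts are near the shares over all genes tested (16.2% lower and 16.1% higher), so they set the lists apart in neither direction. Arntl, which encodes the activator BMAL1, was at 2.69, 3.80, 3.28, 3.47 and 3.39 FPKM in IncPBF lungs 1 to 5 and at 3.10, 3.28, 4.13, 2.91 and 3.41 FPKM in sham lungs 1 to 5. The groups overlapped throughout (log2 difference -0.02, standard error 0.11, adjusted p = 0.927), and IncPBF lung 1, high in the REV-ERB genes for its group, was the lowest lung for Arntl. Its partner Clock fell, from 8.41 ± 0.751 to 6.31 ± 0.452 FPKM (SD, n = 5 per group), with no overlap (log2 difference -0.41, standard error 0.07, adjusted p = 0.00191). Npas2, which can replace CLOCK, ranged from 1.24 to 1.78 FPKM among IncPBF lungs and from 1.23 to 1.98 FPKM among sham lungs (adjusted p = 0.644). Arntl2, a second BMAL gene, had a mean under 0.5 FPKM and was not tested; IncPBF lungs were at 0.547 ± 0.0605 FPKM and sham lungs at 0.423 ± 0.107 FPKM (SD, n = 5 per group).

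Because Nr1d1 fell and Arntl did not change detectably, their log2 ratio shifted within the lungs. It ran from -0.31 to 0.93 among IncPBF lungs and from 0.91 to 1.79 among sham lungs, so the groups overlapped by a small margin. The ratio of Per2 to Arntl was 0.74 to 1.497 and 1.48 to 2.34 in the same order. That of Dbp to Arntl overlapped widely, at -0.21 to 0.76 and -0.18 to 0.88.

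The ROR receptors activate Arntl at the sites where REV-ERB proteins repress it. Rora fell from 6.53 ± 1.05 to 4.57 ± 0.638 FPKM (SD, n = 5 per group; log2 difference -0.50, standard error 0.12, adjusted p = 0.0104 from limma), with a slight overlap between IncPBF lung 2 and sham lung 3. Rorb, with no more than 8 fragments per lung, was not tested.

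Of the other repressors, 0 of 4 passed the threshold in limma. Nfil3, which opposes the PAR bZIP factors at D-boxes, ranged from 9.11 to 13.1 FPKM among IncPBF lungs and from 7.04 to 11.3 FPKM among sham lungs (log2 difference 0.36, standard error 0.13, adjusted p = 0.0559), with sham lung 5 alone inside the IncPBF range. Ciart, an E-box gene that represses CLOCK and BMAL1, was at 4.41 ± 0.856 and 4.40 ± 0.726 FPKM (log2 difference -0.00, standard error 0.15, adjusted p = 0.990). Bhlhe40 and Bhlhe41, repressors that bind E-boxes, had log2 differences of 0.20 (adjusted p = 0.150) and -0.03 (adjusted p = 0.911). Among the modifiers, the kinase gene Csnk1a1 rose by 0.19 (adjusted p = 0.0114) on the log2 scale, while Csnk1d and Csnk1e, whose kinases phosphorylate PER, were at 0.01 and 0.02.

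**Figure D5:**
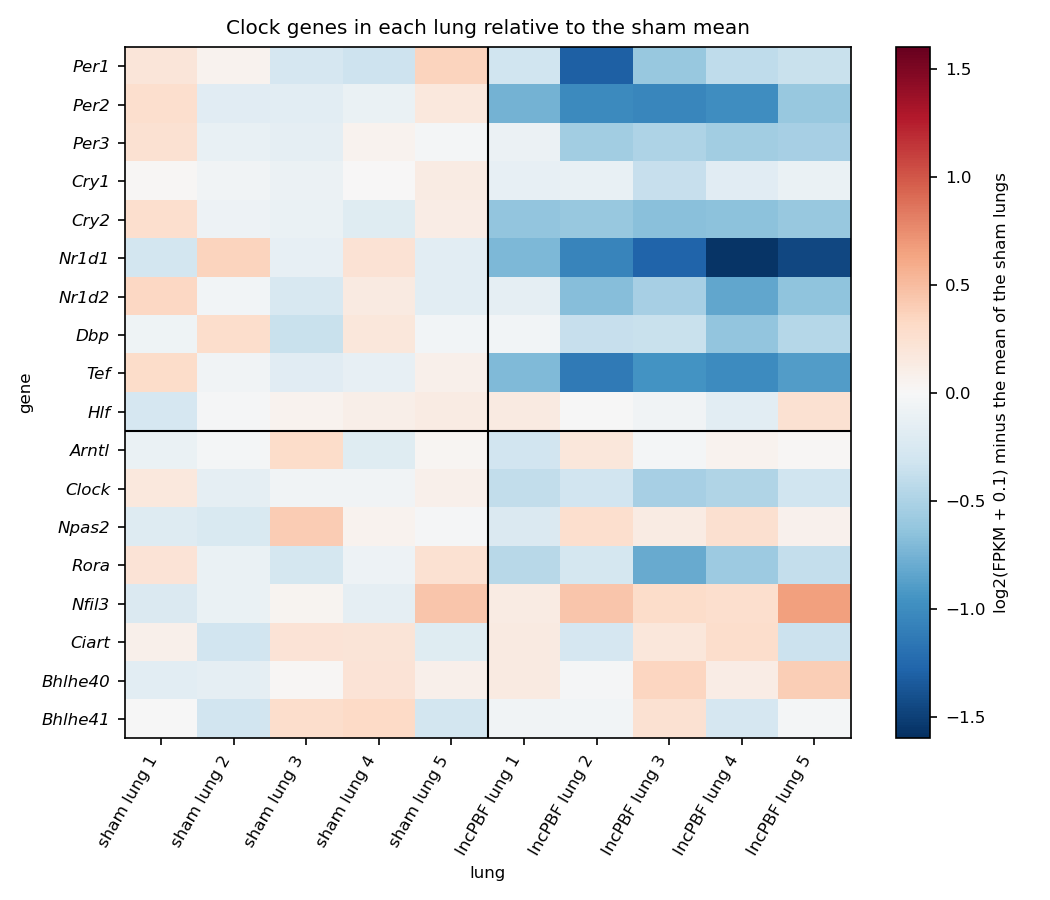
Log2(FPKM + 0.1) minus the mean of the sham lungs (colour, blue below and red above) for the 10 genes above the horizontal line and 8 other clock genes below it (rows), in each lung (columns, sham left and IncPBF right of the vertical line). The blue block of the IncPBF lungs is darkest for Nr1d1, Per2 and Tef and palest in IncPBF lung 1 for Per3, Nr1d2 and Dbp, and Hlf, Arntl and Ciart show no block.

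Of 8 genes that are rhythmic in many organs 3 fell (Tsc22d3, Nampt and Wee1) and 2 rose (Rgs16 and Leo1) at an adjusted p under 0.05 in limma, where 16.2% of all genes tested fell and 16.1% rose, and with so few genes nothing is read from these counts. Tsc22d3, a glucocorticoid-induced repressor of inflammation, fell from 147 ± 27.7 to 47.4 ± 7.41 FPKM (SD, n = 5 per group; log2 difference -1.63). Nampt, an enzyme of NAD synthesis, fell by 0.70 on the log2 scale. Rgs16, a regulator of G protein signaling, rose from 0.674 ± 0.186 to 4.35 ± 0.865 FPKM (log2 difference 2.54). Of 4 known targets of the PAR bZIP factors 2 were tested, and Por, the electron donor of cytochrome P450 enzymes, fell by 0.29 (adjusted p = 0.0181), while Alas1, the first enzyme of heme synthesis, was at -0.05 (adjusted p = 0.727).

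Other genes that respond to glucocorticoids or to cAMP and acute stimuli were looked up as lists. Of 8 glucocorticoid target genes, 6 fell and 0 rose at an adjusted p under 0.05 (limma), with a median log2 difference of -1.51. Among all genes tested 16.2% fell and 16.1% rose by this rule. Zbtb16 (-5.28) and Hif3a (-3.36) had the largest falls. Only the genes of the list that were not called were higher on average. Tsc22d3, counted above among the rhythmic genes, is on this list too. Of 6 cAMP-responsive and immediate early genes, 3 rose and 0 fell, with Nr4a1 (2.12) and Ier2 (0.44) as the largest rises past the threshold. Per1, which belongs to both kinds of target, fell by 0.60, and a link between Per1 and either list was not tested.

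Markers of some lung cell types differed between the groups at an adjusted p under 0.05 (limma). Among all genes tested 16.2% fell and 16.1% rose by this rule. AT1 markers fell in 6 of 6 genes, with sums of 925 to 985 FPKM among IncPBF lungs and 1183 to 1564 FPKM among sham lungs. AT2 markers fell in 4 of 6 (10887 to 13501 against 13176 to 16425 FPKM) and endothelial markers in 4 of 6 (935 to 1003 against 976 to 1279 FPKM). Most of the AT2 sums came from Sftpc, at means of 10428 FPKM in the IncPBF and 12095 FPKM in the sham lungs. Sftpc did not pass the threshold (adjusted p = 0.358 from limma). Smooth muscle markers rose in 4 of 6 (313 to 608 against 112 to 246 FPKM), fibroblast markers rose in 2 and fell in 1 of 6 (562 to 690 against 499 to 628 FPKM), and genes of cell division rose in 4 of 4 (29.8 to 35.9 against 11.0 to 19.7 FPKM).

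The remaining lists showed the blood and airway content of the samples. Erythroid markers fell in 3 of 4 (228 to 1778 against 1375 to 2206 FPKM), where 16.2% of all genes tested fell by the same rule. Of the 4 club cell, 6 ciliated cell, 6 leukocyte and 6 cardiac muscle markers 0 passed the threshold. Club cell markers summed to 5018 to 10660 FPKM among IncPBF lungs and 141 to 12530 FPKM among sham lungs, and ciliated cell markers to 18.3 to 39.7 against 2.45 to 37.9 FPKM, the low ends being sham lung 5. Leukocyte markers summed to 41.5 to 48.8 against 35.9 to 44.3 FPKM and cardiac muscle markers to 32.5 to 96.1 against 7.61 to 45.7 FPKM. None of these markers was at 0 in all lungs. With log2 Foxj1 FPKM, a ciliated cell gene, as a covariate 6 of the 10 clock genes fell, Per1 no longer among them (adjusted p = 0.0854, limma). In that fit 1992 of the 15388 genes tested fell. The part of the other cell types in the differences was not tested.

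Variation among lungs of the same group was compared between the 10 genes. Pearson correlations of log2(FPKM + 0.1) centred on the group means were above 0 in 35 of 45 pairs over the 10 lungs, with a median of 0.30. The share among pairs of other genes was not computed, so nothing is read from this count. After adjustment over the 45 pairs 0 passed 0.05 by exact permutation within groups, for Pearson's r or Spearman's rho. The closest pair was Per3 and Nr1d2 (r = 0.93, rho = 0.95, exact permutation p = 0.00208 and 0.00125, adjusted 0.0734 and 0.0563), with r = 0.75 without the 2 lungs farthest from the median. Nr1d1 and Dbp followed (r = 0.86, rho = 0.80, exact permutation p = 0.00326 and 0.0192, adjusted 0.0734 and 0.216), with r = 0.67 without the 2 farthest lungs.

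The genes most like Dbp in the same centred values over the 10 lungs, the members aside, were Tmbim1 (r = 0.92), Tor1b (0.91), Arhgef16 (0.90), Mblac1 (0.90) and Olfm1 (0.89). Among the 5 most like Per1 were Rnf5 (r = 0.93), Col10a1 (0.93), Ints5 (0.92) and Mlana (0.91). They were picked as the highest of all genes tested, so these values describe the lungs and test nothing. No other gene of the clock lists was among them.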

How the data were processed

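The authors deposited FPKM values for 10 lungs. Per the labels, NEBNext libraries were made from total RNA, and the submitters' processing notes name Bowtie 0.12.2 and the builds GRCm38, mm10 and hg38 without a role. Counting software is not given in the sources used here. Coordinates matched GENCODE M21 on GRCm38 for 98.3% of the genes shared. Columns with the abbreviation for volume overload were taken as the IncPBF group, since the other 5 are named sham. FPKM times gene length gave whole multiples of 1 fragment for 100% of values (within 0.01 fragments, more for high counts in proportion). No pair of lungs in a group was a duplicate (lowest chi-square per gene 6.40).

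Genes with a mean of at least 0.5 FPKM were tested with limma 3.58.1 in R 4.3.3 (lmFit, eBayes with a trend) on log2(FPKM + 0.1), all 10 lungs, no covariate. The pseudocount understates the change of low genes. The script was tested on simulated data. Ratios and correlations used Python 3.11.15 and scipy 1.17.1. Genes named are the 10 members, 3 clock lists, the largest changes past the threshold in the other lists (for cell types counts and sums only), and the 5 genes most like Dbp and Per1. Sphk2, Thra, Xist, Ddx3y, Sftpc, Csnk1d and Csnk1e were added after their values were seen. The members and lists were chosen with earlier results of these data known. The alternatives were other pseudocounts, filters, scalings, covariates and fits, and each lung left out. Chosen after seeing the data were the Foxj1 covariate, leaving out IncPBF lung 1 with sham lung 5, and the 8 ratios. A few genes of the lists are counted but not reported here by name.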

Additional observations from a re-analysis of the deposited data

Results flagged for a closer look

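In 21 clock genes the highest and lowest lung of each group of 5 were compared with the rest of the group by Dixon's ratio, 42 groups in all, of which chance flags about 1 in 20. Per3 in IncPBF lung 1 was far from the others: it was at 6.19 FPKM, against 4.45 to 4.65 FPKM in the other IncPBF lungs (ratio 0.887, above the critical value of 0.71). The same lung was the highest IncPBF lung in Nr1d1, Nr1d2, Dbp, Tef and Per1 and the lowest in Arntl, and it is the IncPBF lung without Xist RNA.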

How the results depend on the processing

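Of 250 values of the 10 genes under other settings, 221 kept their direction and their side of the threshold, 16 lost the call, 11 gained it and 2 reversed, those of Hlf without IncPBF lung 5 and without sham lung 1 (-0.0316 to 0.0862 with each lung left out). The settings include the exact permutation test of each gene on unlogged FPKM, whose p is not adjusted over genes. Cry1 counts among the gains by that test (exact permutation p = 0.00794). Cry2 and Tef kept their call in all settings, and Per2 and Nr1d1 in all but the Xist covariate. With log2 Xist FPKM as a covariate 741 genes in all, 2 of the 10 and 0 of the genes of the 4 clock lists were called, against 4970, 7 and 4. That fit rests on IncPBF lung 1, and sex and surgery cannot be told apart in the other 9 lungs. Without a filter 54532 genes entered, 3125 were called, and 4 of the 10 were called. With each lung left out 3869 to 5234 genes in all, 6 to 9 of the 10 and 4 to 5 genes of the clock lists were called, and the difference of Per3 against Per1 ran from -0.00497 to 0.243. With the replicate block (the number in the column name) 8 of the 10 were called and 4872 genes in all. Same-numbered lungs showed little shared deviation (correlations -0.07 to 0.09), which cannot exclude a weak pairing by number. The causes of these changes were not tested. Limits are 5 lungs per group, no clock time of collection, no known batch, litter or sex in the labels, and 149 fragments on Nr1d1 in its lowest lung. Depth bears on counting error alone, because PCR copies of a fragment were not told apart by molecular tags.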
